A study of Brassica napus with 45 samples.

Results

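Among the 78057 genes listed for the leaves of a BnNAC038 knockout of Brassica napus (rapeseed) and its wild type, 49 differed between the genotypes in the same direction in untreated leaves, after abscisic acid and after polyethylene glycol. A gene was taken when the mean of log2(value + 1) in the knockout was at least 1 above that of wild type in each of the 3 conditions, or at least 1 below it in each. The genes were thus chosen by their knockout differences, which are given as a description and carry no test. The rule set aside 5 stretches of gene order, and those on chromosomes A09 and C08 held 0 genes that met these limits. Of 127 genes that met them, 78 lay in the other stretches set aside, 69 of them in a single stretch of chromosome C01. The other 49 were 30 genes higher and 19 genes lower in the knockout.

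NAC proteins are a large family of plant transcription factors that bind DNA through a conserved domain at their amino end, and many of them act in leaf senescence, in growth and in responses to drought. Abscisic acid (ABA) is a plant hormone that rises under water shortage, closes stomata and changes the expression of many leaf genes. Polyethylene glycol (PEG) in the nutrient solution lowers the water potential around the roots and so withholds water from the plant. Brassica napus is an allotetraploid that carries an A and a C subgenome, so that many genes exist as related copies.

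In the knockout experiment, leaves of the knockout line BnNAC038-KO-1 were set against wild type leaves (the columns named K407) in seedlings left untreated, given 50 µM ABA (3 h) or given 20% PEG (6 h), and each group had 3 libraries. In the overexpression experiment, BnNAC038 overexpression line 1 and line 2 were each set against a separate wild type under the same 3 conditions, again with 3 libraries per group. All 45 libraries came from leaves of seedlings grown in Hoagland solution. The knockout is a single line, and the promoter that drives the transgene is not given in the sources used here. The replicates are called biological in the titles, without saying whether they came from separate plants, so p-values measure the spread between these libraries. The overexpression values are TPM (transcript abundances scaled to a fixed total per library), summed per gene, and the knockout values are another normalized value per gene that the authors deposited with no unit named. The experiments were normalized separately, so every test below stays within 1 of them.

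The identifiers could not be paired with gene names: 0 of them matched the 123214 genes of the reference table. Genes are therefore given by identifier, the BnNAC038 gene itself and markers of leaf cells were not analysed here, and no gene is given a function. The number of genes at a value of 1 or more was 33267 to 39156 in a knockout experiment library and 38105 to 41754 in an overexpression experiment library. Read depth is unknown. Reads shared by near-identical A and C copies or tandem copies may have been divided between them, which limits the value of any single gene. In bulk leaves, fewer cells of a type and less RNA per cell cannot be told apart.

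A few wild type libraries stood apart from the others of their group among these genes. In the knockout experiment, untreated wild type replicate 3 lay at least 0.5 of the way from the other 2 wild type libraries to the knockout for 12 of the 19 genes lower in the knockout and for 1 of the 30 higher ones. In the overexpression experiment, ABA-treated wild type replicates 2 and 3 held levels close to those of the lines for some genes that replicate 1 lacked. Tested changes of named genes whose call or sign turned on these libraries, or whose size moved by over 1.5 times, are also given without them. Knockout differences of single genes, and untested responses within the knockout experiment, are given with all libraries only. Where replicates 2 and 3 are left out, the single wild type library that remains is assumed to vary like the other groups.

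The 30 higher genes exceeded wild type by a median of 1.53 on the log2(value + 1) scale in untreated leaves (1.02 to 5.06), by 1.81 with ABA (1.09 to 7.11) and by 1.94 with PEG (1.16 to 5.90). The 19 lower genes lay below wild type by a median log2 difference of -1.53 in untreated leaves (-3.60 to -1.02), -2.0 with ABA (-4.34 to -1.31) and -1.99 with PEG (-4.64 to -1.28). The limit cut through a continuum. The higher genes nearest to it were BnaC04G0399600ZS at a smallest difference of 1.02 and BnaA08G0151700ZS at 1.06, while BnaA06G0157800ZS at 0.99 and BnaC05G0526900ZS at 0.97 fell just outside. Among the lower genes, BnaA07G0296000ZS at -1.02 and BnaA09G0616700ZS at -1.19 lay just inside, while BnaA10G0219800ZS at -0.93 and BnaA06G0149800ZS at -0.88 lay just outside.

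**Figure D1:**
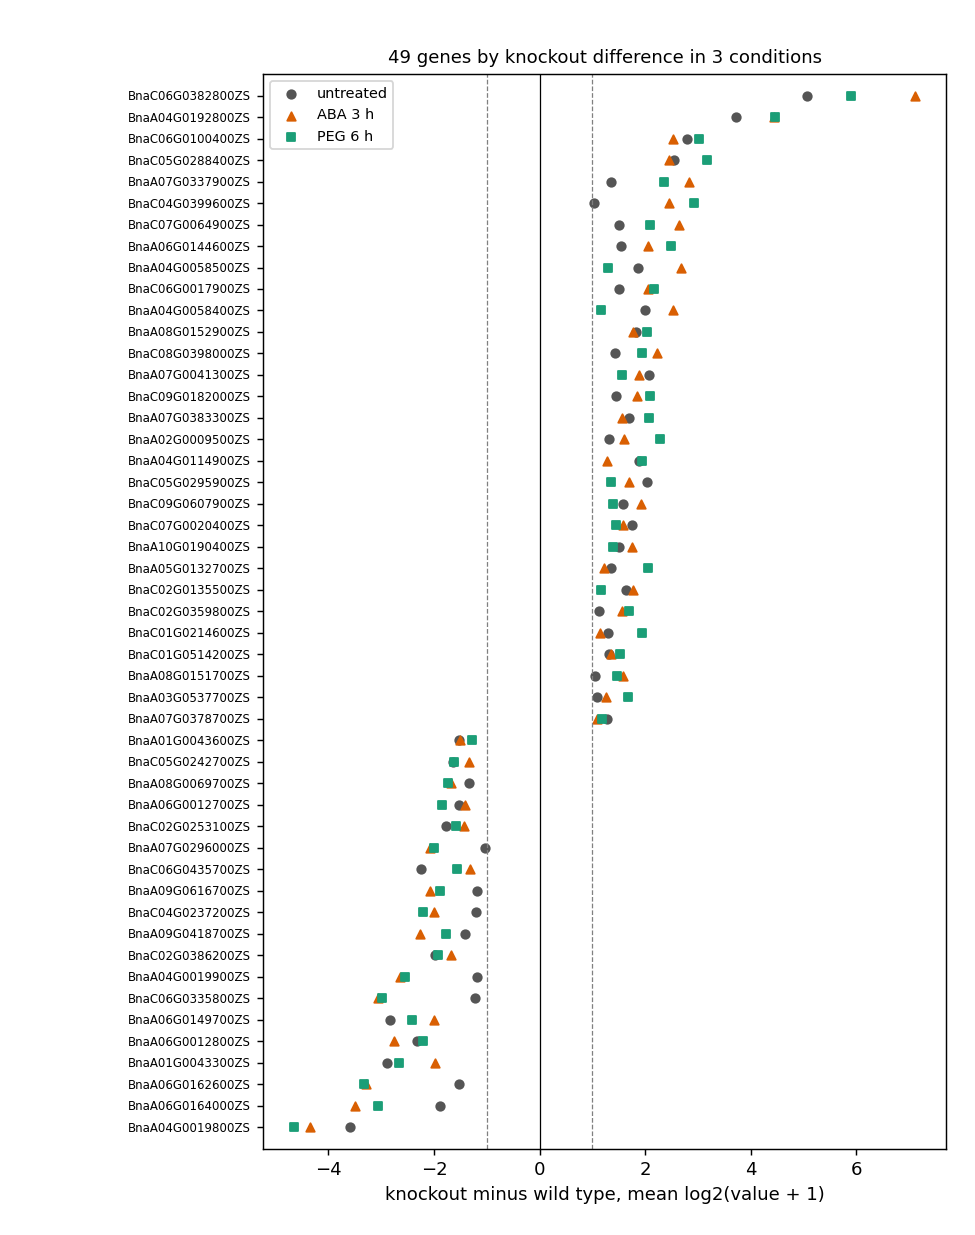
Difference of the knockout from wild type for each of the 49 genes (rows), as mean log2(value + 1) over 3 libraries minus that of 3 wild type libraries, in untreated, ABA-treated and PEG-treated leaves. Dashed lines mark the limits of 1 and -1. The differences run up to 7.11 for BnaC06G0382800ZS and down to -4.64 for BnaA04G0019800ZS.

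The limma model called 41 of the 49 genes in untreated leaves, where it called 2.45% of all tested genes. It called 43 with ABA, against 1.95% of all tested genes, and 42 with PEG, against 1.33%. By direction it called 29, 29 and 28 of the higher genes in untreated, ABA-treated and PEG-treated leaves, where it called 0.960%, 1.26% and 0.727% of all tested genes higher. It called 12, 14 and 14 of the lower genes, where it called 1.49%, 0.683% and 0.601% of all tested genes lower. In all 3 conditions 37 genes were called, 27 of the higher and 10 of the lower ones. The share of all tested genes called in all 3 was not computed. The libraries of the 2 genotypes did not overlap for 43 genes in untreated leaves (21.7% of all tested genes), for 48 with ABA (22.5%) and for all 49 with PEG (12.9%). In all 3 conditions they did not overlap for 42 genes, against 1.07% of all tested genes. The rule had used these same contrasts, so the counts only describe how the chosen genes are spread.

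BnaC06G0382800ZS had the largest knockout difference of all 49 genes in each condition. In untreated leaves its value was 907, 1106 and 1303 in the 3 knockout libraries, against 18.7, 24.1 and 70.9 in wild type. With ABA it was 466, 1409 and 799.9 in the knockout, against 4.84, 3.77 and 6.25 in wild type. With PEG it was 463, 221 and 639 in the knockout, against 4.92, 5.62 and 6.89 in wild type. Every knockout library was above every wild type library in all 3 conditions, and the log2 differences were 5.06, 7.11 and 5.90.

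BnaA04G0192800ZS was nearly absent from wild type. Its untreated value was 10.3, 12.7 and 15.1 in the knockout, against 0.0663, 0 and 0 in wild type. With ABA it was 16.2, 26.8 and 27.1 in the knockout, against 0, 0.112 and 0.183 in wild type, and with PEG 16.9, 25.5 and 27.8 against 0, 0.0799 and 0.178. The groups did not overlap, at log2 differences of 3.73, 4.44 and 4.46. In the overexpression experiment the gene stayed under 1 TPM in every library of the lines and of wild type, and it was not tested there.

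BnaA04G0019800ZS was the lowest of the 19 lower genes relative to wild type. Its untreated value was 1.053, 2.01 and 1.14 in the knockout, against 33.5, 39.5 and 15.8 in wild type. With ABA it was 9.91, 12.4 and 3.81 in the knockout, against 257, 92.6 and 242 in wild type, and with PEG 2.85, 1.87 and 2.90 against 72.9, 65.5 and 136. No knockout library reached a wild type one, and the log2 differences were -3.60, -4.34 and -4.64.

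BnaA06G0012800ZS, the lower gene that came next by its smallest difference over the 3 conditions, showed how 1 library can weigh on a mean. Its untreated value was 1.01, 0.463 and 0.712 in the knockout, against 16.5, 19.9 and 0.708 in wild type. With ABA it was 0.741, 0.982 and 1.71 in the knockout, against 19.4, 12.4 and 9.70 in wild type, and with PEG 0.720, 0.902 and 0.852 against 19.6, 6.87 and 2.74. The genotypes did not overlap with ABA or PEG, while untreated wild type replicate 3 sat inside the range of the knockout. The log2 differences were -2.32, -2.76 and -2.21.

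**Figure D2:**
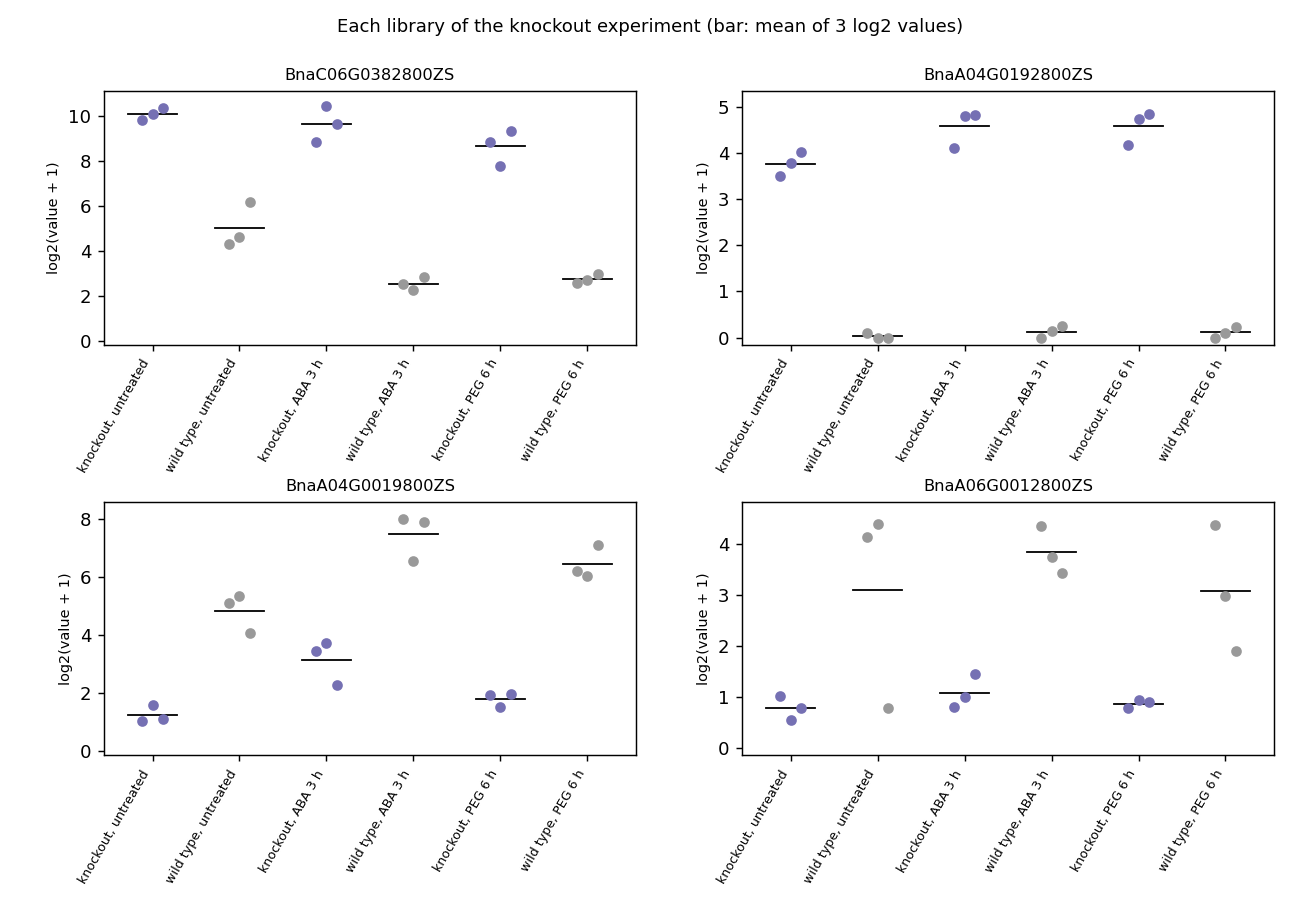
Values of 4 genes in each of the 18 libraries of the knockout experiment, as log2(value + 1), with knockout left of wild type in each condition and a bar at the mean of 3 log2 values. BnaC06G0382800ZS and BnaA04G0192800ZS are higher in every knockout library, and untreated wild type replicate 3 of BnaA06G0012800ZS, at 0.708, lies among the knockout libraries.

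Many of the higher genes were low or absent in wild type. The highest group mean of a higher gene ran from 2.24 to 1105 with a median of 6.11, and for 13 of the 30 it stayed under 5. Among the lower genes it ran from 3.25 to 197 with a median of 14.6, and 4 of the 19 stayed under 5. Of the higher genes, 15 were under 1 in all 9 wild type libraries, and 3 of those were listed at 0 in all 9. Differences on the log2(value + 1) scale understate the change of such low genes.

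Absence in one wild type did not always go with absence in the other. Of the 15 genes under 1 throughout the wild type of the knockout experiment, 8 were also under 1 TPM in all 9 wild type libraries of the overexpression experiment, and 2 were at 1 TPM or more in all 9. Among the lower genes, 3 were under 1 in all 9 knockout libraries, and 2 of those were listed at 0 in all 9. These 2, BnaA09G0616700ZS and BnaC04G0237200ZS, were picked out after their values were seen.

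BnaA09G0616700ZS was listed at 0 in every knockout library and had values of 2.41, 2.48 and 0 in untreated wild type, 3.93, 3.03 and 2.80 in wild type with ABA and 2.71, 2.73 and 2.65 in wild type with PEG. BnaC04G0237200ZS was likewise listed at 0 in every knockout library and had 2.45, 2.60 and 0 in untreated wild type, 2.72, 3.72 and 2.58 with ABA and 3.53, 3.95 and 3.31 with PEG. Both were listed at 0 in untreated wild type replicate 3 as well, so that library matched the knockout for both genes. In the untreated overexpression experiment both genes were well above 0 in every library: BnaA09G0616700ZS had 28.8, 25.3 and 31.7 TPM in line 1, 33.9, 30.8 and 25.5 TPM in line 2 and 31.0, 38.7 and 35.5 TPM in wild type. BnaC04G0237200ZS had 18.7, 16.8 and 24.4 TPM in line 1, 22.1, 21.9 and 24.3 TPM in line 2 and 20.4, 21.5 and 21.7 TPM in wild type.

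The weight of untreated wild type replicate 3 was largely on the lower genes. For the 12 lower genes that it placed this far towards the knockout, its share of the way ran from 0.628 to 1.09, where 0 is the mean of the other 2 wild type libraries and 1 is the knockout mean. Over all 19 lower genes its median share was 0.698. Untreated wild type replicates 1 and 2 placed 0 and 2 of the 49 genes at 0.5 or more, and no ABA-treated or PEG-treated wild type library placed more than 3. All 5 lower genes of chromosome A06 were among the 12.

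BnaC06G0335800ZS, another of the 12 and chosen after its values were seen, had untreated values of 6.83, 6.93 and 7.07 in the knockout, against 22.7, 29.3 and 7.78 in wild type. With ABA it had 6.12, 4.66 and 5.86 in the knockout, against 50.9, 58.9 and 49.7 in wild type. Its genotypes were thus far apart with ABA, while untreated wild type replicate 3 lay close to the knockout. Without that library the rule took 61 genes, 33 higher and 28 lower, of which 47 were among the 49 and 14 were others. What set that library apart was not tested.

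**Figure D3:**
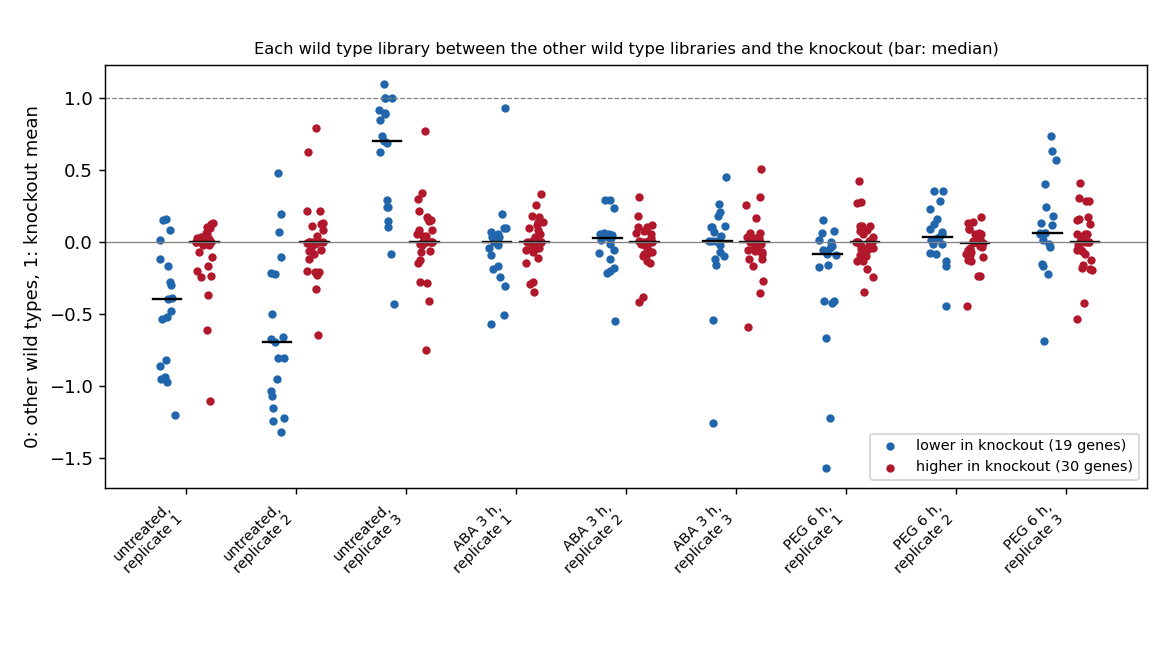
Position of each wild type library of the knockout experiment between the mean of the other 2 wild type libraries of its group (0) and the knockout mean (1), with 1 point per gene and a bar at the median, separately for the 19 lower and the 30 higher genes. Untreated replicate 3 has a median share of 0.698 for the lower genes, while each treated library has a median close to 0.

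The 49 genes were spread over 18 chromosomes, with at most 6 on any of them (A04 and A06). The A subgenome held 28 genes, or 57.1% of them, against 47.8% of all tested genes, and the C subgenome held 21, or 42.9%, against 51.0%. On A06, 5 of the 6 genes were lower in the knockout. There were 4 pairs of genes that lay within 10 numbers of each other in gene order, and both genes of each pair had the same direction.

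The neighbours of the 49 genes stayed near 0 in the knockout contrasts. Here and below, the 10 nearest tested genes are 5 on each side, with all of the 49 genes left out. The rule had set aside 5 stretches, 1 of which held 69 genes that met the limits, so neighbours near 0 were in part fixed by it. The median knockout difference of these neighbours lay between -0.27 and 0.33 on the log2 scale for every gene in every condition. For 0 of the 49 genes did it reach 0.5 in either direction. In the overexpression lines these medians also stayed under 0.5 in untreated and ABA-treated leaves, and with PEG they reached it for 4 genes in line 1 and 3 in line 2. These were the neighbours BnaA04G0058400ZS and BnaA04G0058500ZS and, in the other direction, BnaA10G0190400ZS in both lines and BnaA07G0296000ZS in line 1.

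The overexpression experiment shares no library with the knockout experiment, so it gives values that the rule did not use. All 49 genes were listed there and 40 passed the filter of at least 1 TPM in at least 3 libraries, 22 of the 30 higher and 18 of the 19 lower ones. The highest value of the other 9 was 1.31 TPM, and 2 of them were listed at 0 in all 27 libraries. In untreated leaves 20 of the 49 genes were called in line 1 (9 higher and 11 lower than wild type, limma adjusted p under 0.05), against 4.60% of all tested genes. In line 2, 19 were called (9 higher and 10 lower), against 8.06%. Both lines were compared with the same wild type libraries.

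Most calls in untreated leaves ran in the direction of the knockout. Of the 30 genes higher in the knockout, 8 were also higher and 3 were lower in line 1, and the counts in line 2 were 8 and 3. Of the 19 genes lower in the knockout, 8 were lower and 1 was higher in line 1, and 7 were lower and 1 was higher in line 2. Among all tested genes, 2.31% were called higher and 2.28% lower in line 1, and 5.35% and 2.70% in line 2.

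With PEG, 21 of the 49 genes were called in line 1 (9 higher and 12 lower), against 13.4% of all tested genes, and 20 in line 2 (10 higher and 10 lower), against 10.6%. Of the 30 genes higher in the knockout, 8 were higher in line 1 and 4 lower, and 8 were higher in line 2 and 3 lower. Of the 19 genes lower in the knockout, 8 were lower in line 1 and 1 higher, and 7 were lower in line 2 and 2 higher. Among all tested genes, 6.53% were called higher and 6.91% lower in line 1 with PEG, and 5.41% and 5.22% in line 2.

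With ABA, 16 genes were called in line 1 (7 higher and 9 lower), against 2.37% of all tested genes, and 17 in line 2 (8 higher and 9 lower), against 2.85%. Of all tested genes, 1.02% were called higher and 1.35% lower in line 1 with ABA, and 1.59% and 1.26% in line 2. Of the 30 genes higher in the knockout, 5 were higher and 2 lower in line 1, and 6 were higher and 2 lower in line 2. Of the 19 genes lower in the knockout, 7 were lower and 2 higher in each line. Without ABA-treated wild type replicates 2 and 3 a single wild type library remains, so no count of calls is given. Without ABA-treated wild type replicate 1, 11 genes were called in line 1 and 10 in line 2. The calls over all tested genes fell too, from 1125 to 620 in line 1 and from 1355 to 701 in line 2. ABA-treated wild type replicate 1 was the lowest of the 3 in 8 of the 9 genes called higher in untreated line 1.

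**Figure D4:**
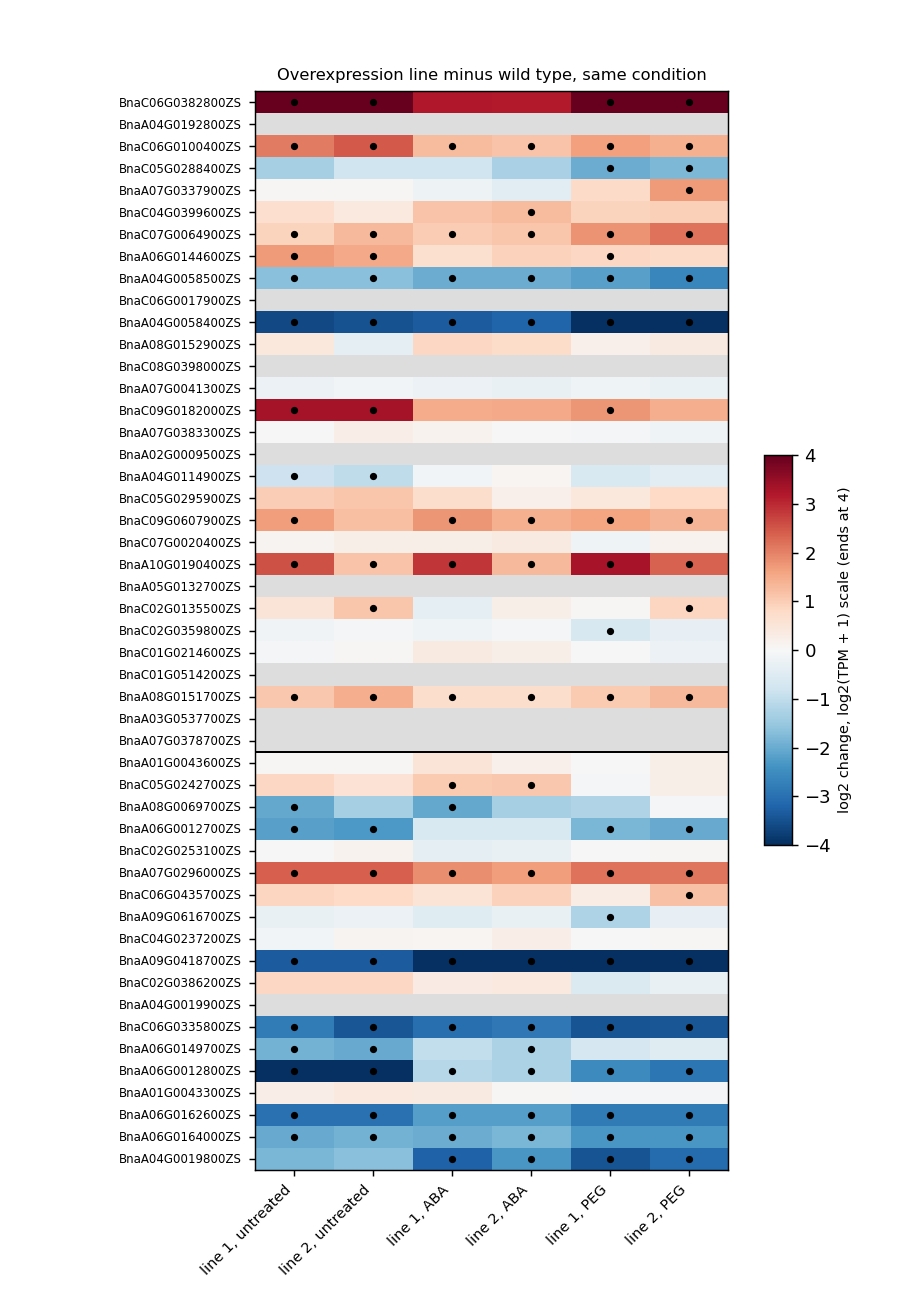
Log2 change of each overexpression line from wild type of the same condition, on the log2(TPM + 1) scale, for the 49 genes in the order of their knockout difference, with the genes higher in the knockout above the black line. Dots mark limma calls, grey rows are the 9 genes not tested, and the colour scale ends at 4, so that the 8.13 of BnaC06G0382800ZS in untreated line 1 is drawn at its end. The 5 genes higher and the 5 lower in the knockout that line 1 changed alike in all 3 conditions carry dots in each line 1 column.

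In line 1, 5 of the 30 higher genes were called higher and 5 of the 19 lower genes were called lower in all 3 conditions. In line 2 these counts were 4 and 5. The genes called in the opposite direction in all 3 conditions were 2 higher genes and 1 lower gene in each line. The genes called in no condition were 17 of the higher and 7 of the lower ones in line 1, and 15 and 8 in line 2. The shares of all tested genes called in all 3 conditions or in no condition were not computed. These joint counts are therefore only a description.

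BnaC06G0382800ZS, the gene with the largest knockout difference, was also raised in the lines. In untreated leaves it had 482, 467 and 459 TPM in line 1 and 387, 465 and 505 TPM in line 2, against 0.337, 1.18 and 0.608 TPM in wild type. With PEG it had 43.4, 20.0 and 95.8 TPM in line 1 and 27.6, 52.2 and 45.5 TPM in line 2, against 0.139, 0.480 and 0.204 TPM in wild type. Every library of the lines was above every wild type library in both conditions. The log2 changes in untreated leaves were 8.13 in line 1 and 8.07 in line 2 (SE 1.01, limma adjusted p = 8.97e-06 and 8.51e-06), and with PEG 5.15 and 5.03 (limma adjusted p = 0.00149 and 0.00178).

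With ABA the wild type libraries of BnaC06G0382800ZS split. It had 472, 500.2 and 365 TPM in line 1 and 434, 369.8 and 509 TPM in line 2, against 1.196, 258 and 199 TPM in wild type. Each library of the lines was still above each wild type library, but wild type replicates 2 and 3 lay nearer to the lines than to replicate 1. The log2 changes of 3.19 and 3.17 were not called (limma adjusted p = 0.127 and 0.116). Without wild type replicates 2 and 3 they were 7.66 and 7.63 and were called (limma adjusted p = 1.54e-09 and 1.63e-09).

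BnaC09G0182000ZS was also raised in the untreated lines, at a lower level. In untreated leaves it had 15.8, 17 and 12.5 TPM in line 1 and 12.4, 11.7 and 23.5 TPM in line 2, against 0.379, 0.617 and 0.813 TPM in wild type. With ABA it had 14.2, 6.44 and 10.1 TPM in line 1 and 12, 8.41 and 9.85 TPM in line 2, against 0.400, 7.13 and 4.14 TPM in wild type. The untreated groups did not overlap, whereas with ABA wild type replicate 2 lay within the range of line 1. The untreated log2 change was 3.33 in each line (SE 0.58, limma adjusted p = 0.000558 in line 1 and 0.000422 in line 2). With ABA the changes of 1.48 and 1.501 were not called (limma adjusted p = 0.266 and 0.234), whereas without wild type replicates 2 and 3 they were 2.95 and 2.97 and were called (limma adjusted p = 0.0264 and 0.0236). With PEG it had 1.89, 1.69 and 6.78 TPM in line 1 and 0, 5.40 and 3.89 TPM in line 2, against 0, 0.514 and 0 TPM in wild type. A library of line 2 thus lay at the level of wild type. The PEG change of 1.77 in line 1 was called (limma adjusted p = 0.0441) and that of 1.46 in line 2 was not (limma adjusted p = 0.113).

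BnaA10G0190400ZS differed in size between the lines. With PEG it had 15.4, 19.5 and 13.1 TPM in line 1 and 6.70, 7.91 and 8.62 TPM in line 2, against 0.469, 0.752 and 0.924 TPM in wild type. With ABA it had 18, 17.8 and 17.4 TPM in line 1 and 4.31, 6.32 and 5.49 TPM in line 2, against 0.525, 3.14 and 1.71 TPM in wild type. The 3 groups did not overlap in either condition, and line 1 was the highest. The log2 changes with PEG were 3.30 in line 1 and 2.35 in line 2 (SE 0.23, limma adjusted p = 1.20e-09 and 1.93e-07), and with ABA 2.86 and 1.29 (limma adjusted p = 2.76e-08 and 0.00158). Without ABA-treated wild type replicates 2 and 3 the ABA changes were 3.62 and 2.05, both called. The difference between the lines was not tested. The 10 nearest tested genes had median log2 changes in the same direction, at 0.65 in line 1 and 0.63 in line 2 with PEG, 0.20 and 0.34 with ABA, and 0.40 and 0.45 in untreated leaves, and their part was not tested. In the knockout experiment this gene had 5.80, 5.05 and 4.81 in the PEG-treated knockout, against 0.934, 1.66 and 1.57 in wild type.

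Among the genes lower in the knockout, BnaA09G0418700ZS was close to absent in both lines. With PEG it had 0, 0.527 and 0.747 TPM in line 1 and 0.688, 1.26 and 0 TPM in line 2, against 56.9, 40.6 and 55.2 TPM in wild type. With ABA it had 0, 0 and 0 TPM in line 1 and 0, 0 and 0.441 TPM in line 2, against 38.7, 20.6 and 21.1 TPM in wild type. In untreated leaves it was listed at 0 in all 6 libraries of the lines, against 8.11, 8.20 and 11.0 TPM in wild type. The wild type libraries were far above those of the lines in each condition. The log2 changes were -5.21 and -5.04 with PEG (SE 0.25, limma adjusted p = 2.47e-12 in line 1 and 4.71e-12 in line 2) and -4.74 and -4.56 with ABA (limma adjusted p = 2.23e-11 and 5.20e-11). The knockout itself kept a low level, at 2.86, 3.22 and 1.98 with PEG, against 12.4, 9.21 and 13.2 in its wild type.

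BnaA06G0012800ZS fell most in untreated leaves. It had 2.01, 1.5004 and 1.79 TPM in line 1 and 2.59, 2.104 and 1.32 TPM in line 2, against 42.1, 60.5 and 41.8 TPM in wild type. The log2 changes were -4.13 and -4.03 (SE 0.28, limma adjusted p = 8.71e-10 and 1.22e-09). With ABA, where wild type itself had only 5.11, 5.27 and 1.90 TPM, the changes were -1.13 and -1.26 (limma adjusted p = 0.0268 and 0.0103). The 12 lower genes for which untreated wild type replicate 3 stood near the knockout included 6 called lower and 1 called higher in untreated line 1, and the same counts held in line 2. Of the other 7 lower genes, 2 were called lower in line 1 and 1 in line 2. These 7 include BnaA04G0019900ZS, which was not tested in the overexpression experiment and so could not be called. Among all tested genes, 2.28% were called lower and 2.31% higher in untreated line 1, and 2.70% and 5.35% in line 2. The difference between the 12 and the 7 genes was not tested.

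A few genes went the other way in the lines. BnaA04G0058400ZS and its neighbour BnaA04G0058500ZS were higher in the knockout and nearly absent from both lines. BnaA04G0058400ZS had untreated values of 14.4, 14.2 and 15.2 in the knockout, against 2.96, 2.25 and 3.54 in its wild type. In the untreated overexpression experiment it had 0, 0 and 0 TPM in line 1 and 0.149, 0.136 and 0 TPM in line 2, against 12.3, 11.3 and 10.4 TPM in wild type. The groups did not overlap in either experiment, with opposite signs. The log2 changes were -3.62 in line 1 and -3.49 in line 2 (SE 0.18, limma adjusted p = 2.98e-12 and 6.30e-12), and with PEG -4.27 and -4.48 (limma adjusted p = 1.01e-13 and 3.39e-14).

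BnaA04G0058500ZS had untreated values of 19.5, 18.8 and 19.8 in the knockout, against 5.10, 3.76 and 5.01 in its wild type. It was listed at 0 in all 6 untreated libraries of the lines, against 2.46, 2.58 and 1.67 TPM in wild type, and the log2 change was -1.68 in each line (SE 0.19, limma adjusted p = 1.93e-06 in line 1 and 1.69e-06 in line 2). The genes around this pair were also lower in the lines with PEG, at a median log2 change of -0.88 in line 1 and -0.59 in line 2 over the 10 nearest tested genes, and at -0.45 and -0.30 in untreated leaves. The same neighbours had a median of -0.07 in the untreated knockout. The part of the neighbourhood in the values of the pair was not tested.

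BnaA07G0296000ZS was the gene lower in the knockout that was called higher in all 3 conditions in both lines. Genes lower in the knockout that were called higher in at least 1 condition numbered 2 in line 1 and 3 in line 2, this gene included. The share of all tested genes called higher in at least 1 condition was not computed, so these counts are only a description. With ABA BnaA07G0296000ZS had values of 15.4, 17.2 and 17 in the knockout, against 75.9, 70.9 and 72.3 in its wild type. In the overexpression experiment with ABA it had 86.9, 114 and 116 TPM in line 1 and 100.1, 92.9 and 83.7 TPM in line 2, against 15.2, 39.1 and 37.7 TPM in wild type. All libraries of the lines were above all wild type libraries. The log2 changes were 1.86 and 1.67 with ABA (SE 0.26, limma adjusted p = 9.41e-05 and 0.000361) and 2.39 and 2.40 in untreated leaves (limma adjusted p = 1.31e-06 and 1.08e-06). Without ABA-treated wild type replicates 2 and 3 the ABA changes were 2.71 and 2.53, both called. Its 10 nearest tested genes had median log2 changes of 0.62 in line 1 and 0.49 in line 2 with PEG, and of 0.45 and 0.41 in untreated leaves, and their part was not tested. This gene lay nearest to the limit of the rule, and in untreated leaves wild type replicate 3 of the knockout experiment had 20.7 beside 45.7 and 60.01 in the other 2.

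**Figure D5:**
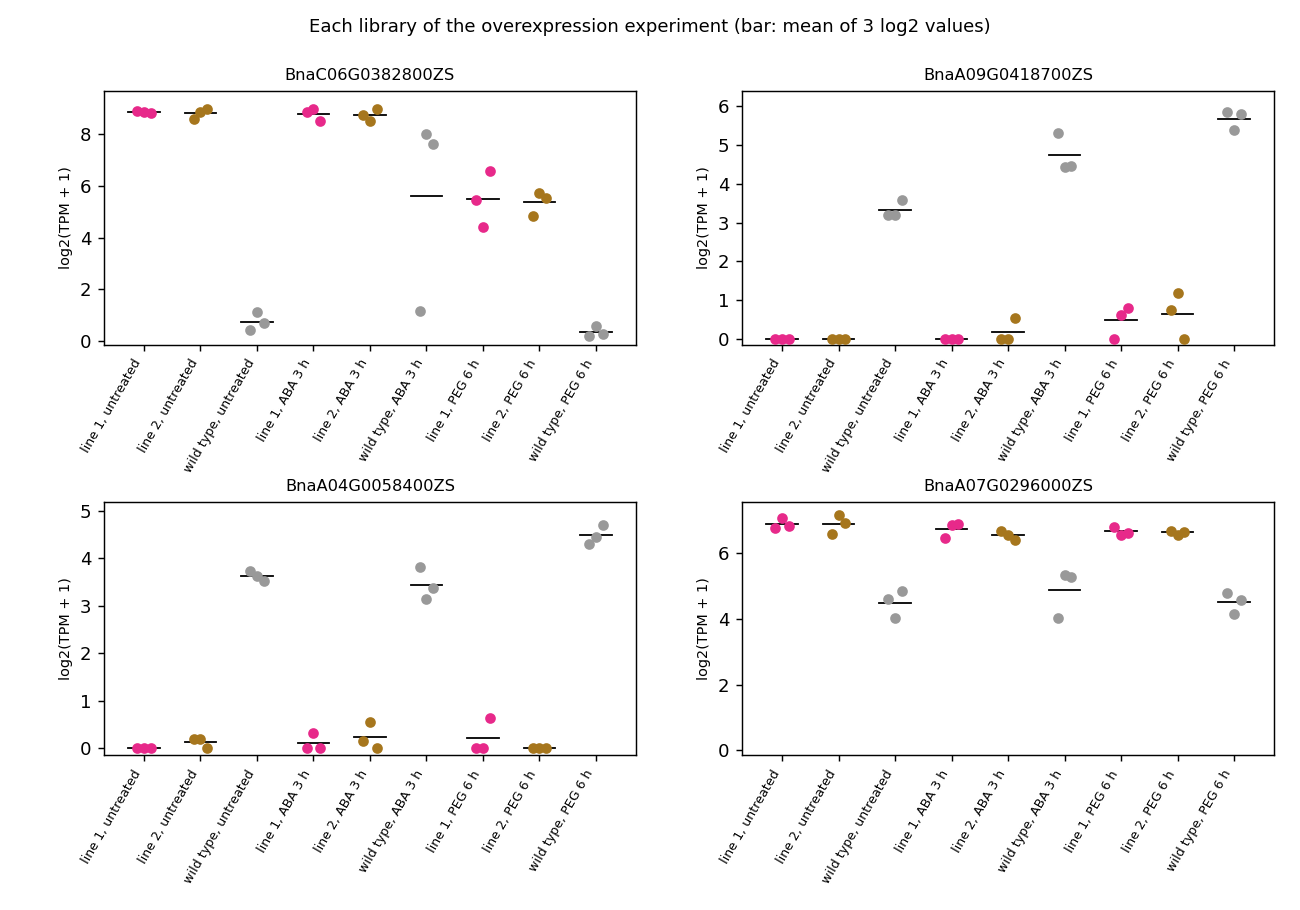
Values of 4 genes in each of the 27 libraries of the overexpression experiment, as log2(TPM + 1), with line 1 and line 2 left of wild type in each condition and a bar at the mean of 3 log2 values. BnaC06G0382800ZS is high in both lines and in 2 of the 3 ABA-treated wild type libraries (258 and 199 TPM), BnaA09G0418700ZS and BnaA04G0058400ZS are near 0 in the lines, and BnaA07G0296000ZS is higher in the lines.

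The treatment responses were read from values that the rule did not fix: the mean of knockout and wild type, treated against untreated, and the wild type of the overexpression experiment. Averaged over knockout and wild type, ABA changed 20 of the 49 genes (14 higher and 6 lower, limma adjusted p under 0.05), where it changed 58.8% of all tested genes. PEG changed 27 (17 higher and 10 lower), where it changed 70.8% of all tested genes. Among all tested genes ABA raised 17.4% and lowered 41.4%, and PEG raised 41.6% and lowered 29.2%. In the wild type of the overexpression experiment ABA changed 18 of the 49 (11 higher and 7 lower), against 34.7% of all tested genes, and PEG 15 (7 higher and 8 lower), against 62.1%. Among all tested genes of that wild type ABA raised 16.4% and lowered 18.3%, and PEG raised 39.8% and lowered 22.4%. Only 40 of the 49 genes were tested in that wild type.

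The median of all tested genes moved by -0.17 on the log2 scale with ABA in the first of these contrasts, by 0.11 with PEG, and by 0.20 with PEG in the wild type of the overexpression experiment. After quantile normalization the averaged ABA split was 16 higher and 3 lower. The PEG split in the wild type of the overexpression experiment was then 6 higher and 12 lower. The split of all tested genes moved too, to 11280 higher and 11993 lower for averaged ABA, against 7457 and 17767 before. For PEG in that wild type it was 14078 higher and 14204 lower, against 18886 and 10615. When ABA-treated replicates 2 and 3 of the overexpression wild type were left out, the sign of the ABA response there turned for 11 of the 40 tested genes. ABA and PEG responses within an experiment share the untreated libraries.

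BnaA04G0019800ZS, the gene with the lowest knockout values relative to wild type, responded to both treatments. In the overexpression experiment it had 113, 72.7 and 10.04 TPM in ABA-treated wild type and 39.9, 36.6 and 31.6 TPM in PEG-treated wild type, against 2.31, 4.50 and 2.30 TPM in untreated wild type. All treated libraries were above all untreated ones. The log2 changes were 3.53 with ABA and 3.24 with PEG (SE 0.60, limma adjusted p = 7.31e-05 and 7.46e-05). Averaged over knockout and wild type in the knockout experiment the changes were 2.28 with ABA (SE 0.31, limma adjusted p = 1.54e-05) and 1.09 with PEG (limma adjusted p = 0.00566). In the lines with PEG it had 3.66, 2.08 and 1.66 TPM in line 1 and 3.23, 2.14 and 5.43 TPM in line 2, at log2 changes from wild type of -3.45 and -3.07 (limma adjusted p = 0.000398 and 0.00130).

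BnaA01G0043300ZS had higher values with ABA in each genotype. It had 37.0, 32.3 and 25.8 in the ABA-treated knockout, against 4.53, 7.15 and 5.53 in untreated leaves of that genotype. ABA-treated wild type had 120.3, 121 and 141, against 60.3, 55.8 and 33.9 in untreated wild type. The response averaged over both genotypes was 1.83 (SE 0.19, limma adjusted p = 7.40e-07). In the wild type of the overexpression experiment the response was 2.45 (SE 0.20, limma adjusted p = 1.65e-09). Its level in the untreated lines, at 14.9, 16.4 and 16.1 TPM in line 1 and 15, 18.1 and 19.7 TPM in line 2, overlapped the 14.8, 9.69 and 15.5 TPM of wild type, and neither line was called (log2 changes 0.25 and 0.39, SE 0.20).

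BnaA06G0144600ZS, higher in the knockout, fell with both treatments in the knockout experiment. It had 37.1, 40.1 and 32.4 in the ABA-treated knockout, against 114, 113 and 91.0 in untreated leaves of that genotype. ABA-treated wild type had 9.70, 8.47 and 6.09, against 24.3, 23.9 and 75.3 in untreated wild type. The averaged responses were -1.76 with ABA and -2.43 with PEG (SE 0.25, limma adjusted p = 1.95e-05 and 4.37e-07). In the wild type of the overexpression experiment it instead had 11.8, 25.7 and 24.4 TPM with ABA, against 7.87, 10.2 and 8.12 TPM untreated, which is 1.09 on the log2 scale (SE 0.27, limma adjusted p = 0.00334). Without ABA-treated wild type replicates 2 and 3 that response was 0.41 and was not called (limma adjusted p = 0.447). Without untreated wild type replicate 3 of the knockout experiment the averaged responses were -1.50 with ABA and -2.16 with PEG, both called.

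BnaC06G0382800ZS likewise had opposite ABA responses in the 2 experiments. Averaged over knockout and wild type it fell by 1.46 on the log2 scale (SE 0.33, limma adjusted p = 0.00129). Within that average, the wild type changed by -2.49. The ABA-treated knockout values of 466, 1409 and 799.9 overlapped the untreated 907, 1106 and 1303. In the wild type of the overexpression experiment the log2 change was 4.86 (SE 1.01, limma adjusted p = 0.000682). That last value rested on ABA-treated wild type replicates 2 and 3. Without them it was 0.39 and was not called. With PEG the averaged change was -1.86 (limma adjusted p = 0.000115).

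The neighbours BnaA06G0012700ZS and BnaA06G0012800ZS fell with both treatments in the wild type of the overexpression experiment. BnaA06G0012700ZS had 2.29, 2.68 and 1.72 TPM with ABA and 4.15, 5.18 and 2.05 TPM with PEG, against 20.9, 31.6 and 21.5 TPM in untreated wild type. Its log2 changes were -2.98 and -2.46 (SE 0.25, limma adjusted p = 2.48e-09 and 2.19e-08), and those of BnaA06G0012800ZS were -3.33 and -2.40 (SE 0.28, limma adjusted p = 2.41e-09 and 1.58e-07). Treated and untreated libraries did not overlap for either gene. Averaged over knockout and wild type in the knockout experiment, neither gene was called, with ABA responses of 0.35 and 0.52. Both are among the genes for which untreated wild type replicate 3 lay near the knockout. Without that library the averaged ABA responses were -0.09 and -0.06, neither called, so the sign turned for both. The averaged PEG responses without it were -1.12 for BnaA06G0012700ZS, which was then called (limma adjusted p = 0.00653), and -0.54 for BnaA06G0012800ZS, against -0.68 and 0.04 with all libraries.

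BnaA09G0418700ZS rose with PEG in the wild type of the overexpression experiment, to 56.9, 40.6 and 55.2 TPM, against 8.11, 8.20 and 11.0 TPM untreated (log2 change 2.36, SE 0.25, limma adjusted p = 6.55e-08). Its averaged PEG response in the knockout experiment was 1.00 (SE 0.12, limma adjusted p = 2.81e-06). BnaA04G0058400ZS had an averaged PEG response of 1.12 (SE 0.20, limma adjusted p = 0.000111), and 0.86 in the wild type of the overexpression experiment (SE 0.18, limma adjusted p = 0.000216). Both genes thus kept a PEG response in the averaged knockout experiment and in the separate wild type, while their levels in the PEG-treated lines were at or under 1.26 TPM.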

How the data were processed

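Leaf RNA of 45 libraries in 15 groups of 3 was grouped by sample title. The labels' genotype field for overexpression line 2 names differently numbered NAC genes, and the titles, which name BnNAC038 throughout, were followed. The authors deposited normalized signal values per gene for the knockout experiment (with sums of 760713 to 842688 per library, unit not stated) and TPM per transcript for the overexpression experiment, as read from the values. TPM were summed here to 100919 genes, of which 4109 have more than 1 transcript. Tools listed, without role, per the submitters' processing notes are sleuth 0.30.1, kallisto 0.51.1, DESeq2 1.38.3 and HISAT2. The genome build behind the values was not given in the sources used here. Without counts, depth stays unknown and intervals for counting error were not computed.

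Values were transformed as log2(value + 1). Genes at 1 or more in at least 3 libraries of an experiment were tested (42926 and 47474 genes) in R 4.3.3 with limma 3.58.1 and data.table (version 1.17.8): a linear model over all groups of 1 experiment, empirical Bayes with a mean trend, no replicate block, and a call at a Benjamini-Hochberg adjusted p under 0.05 over all tested genes. The plan foresaw a count test if the file held counts, and the unit required limma. The model was tested on simulated data. Running numbers are identifier digits without the final zeros and stand for gene order. With no gene names, at most 2 identifiers per direction and comparison were named: those with the largest differences or changes, those nearest the limit, and those opposite in both lines. Others are marked as chosen after their values were seen. The genes, lists and alternatives were chosen with earlier results of these data known. Left out: gene names, sequences, the BnNAC038 gene itself and leaf markers, which were not analysed here.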

Additional observations from a re-analysis of the deposited data

Results flagged for a closer look

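These contrasts between treatment responses were picked out because every library of one group moved one way and every library of the other the opposite way. The differences themselves were not tested. Values are log2 changes from untreated leaves on the log2(value + 1) scale.

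With ABA, BnaC06G0382800ZS changed by -2.49 in the wild type of the knockout experiment and by 4.86 in the wild type of the overexpression experiment, where replicates 2 and 3 carry the value (0.39 without them). BnaA06G0144600ZS changed by -1.51 in the knockout and by -2.02 in its wild type, against 1.09 in the wild type of the overexpression experiment, or 0.41 there without ABA-treated replicates 2 and 3. BnaC06G0335800ZS changed by 1.55 in the wild type of the knockout experiment and by -0.64 in that of the overexpression experiment (-0.33 without the same 2 libraries).

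With PEG, BnaA07G0041300ZS changed by 0.29 in the knockout and by 0.82 in its wild type, against -0.35 in the wild type of the overexpression experiment. BnaA08G0151700ZS changed by -0.49 in the wild type of the knockout experiment and by 0.26 in that of the overexpression experiment. BnaC04G0237200ZS changed by 0.99 and by -0.56 in the same 2 wild types.

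The remaining contrasts set the knockout against its own wild type and are made of values that the rule used. BnaA06G0164000ZS changed by -0.35 in the knockout and by 1.27 in wild type with ABA. BnaC06G0335800ZS changed by -0.29 in the knockout and by 1.55 in wild type with ABA, and by -0.31 and 1.45 with PEG. Untreated wild type replicate 3, which lay near the knockout for BnaA06G0144600ZS, BnaA06G0164000ZS, BnaC06G0335800ZS and BnaC04G0237200ZS, is part of their wild type responses. In that order its value was 75.3 beside 24.3 and 23.9, 2.99 beside 15.6 and 20.0, 7.78 beside 22.7 and 29.3, and 0 beside 2.45 and 2.60. In each case it enlarges the wild type response printed above. The responses without this library were not computed, and its part was not tested.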

How the results depend on the processing

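The number of genes taken depended on the scale and the limit. With a pseudocount of 0.1 in place of 1 the rule took 106 higher and 85 lower genes, and with a limit of 2 it took 4 and 3. Of the 19 lower genes, 10 were also called by limma in all 3 conditions. Leaving out 1 library at a time gave 28 to 33 higher and 15 to 28 lower genes, with 28 lower ones without untreated wild type replicate 3. Equal library sums gave 31 and 18 and quantile normalization 33 and 19.

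Under another filter, pseudocount or scaling the counts of calls among the 49 genes stayed within 1.5 times, and no named change reversed. Averaged PEG calls were 21 without a filter and with a stricter one, against 27. Line 1 with PEG had 26 with a pseudocount of 0.1, against 21, and line 2 with ABA had 13 without a filter, against 17. Over all genes tested under each setting, averaged PEG had 38302 calls without a filter and 16877 with the stricter one, against 30379. Line 1 with PEG had 5749 with the pseudocount of 0.1, against 6381, and line 2 with ABA had 1279 without a filter, against 1355. Leaving out 1 library gave 18 to 21 calls in untreated line 1, 11 to 18 with ABA and 18 to 22 with PEG. All tested genes then gave 1483 to 1885, 620 to 1100 and 2605 to 10520 calls, against 2183, 1125 and 6381. In line 2, leaving out 1 library gave 19 to 21, 10 to 17 (10 without ABA-treated wild type replicate 1) and 19 to 20. All tested genes then gave 2177 to 4133, 701 to 1400 and 3004 to 7710, against 3826, 1355 and 5047. For ABA and PEG it gave 16 to 20 and 21 to 26 in the averaged responses, and 12 to 20 and 13 to 16 in the wild type of the overexpression experiment, where ABA without replicates 2 and 3 called 8. BnaC09G0607900ZS in ABA-treated line 2 (log2 change 1.42, limma adjusted p = 0.0485) lost its call under 7 alternatives. Its change was 2.53 without ABA-treated wild type replicates 2 and 3. Why was not tested.

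Deviations of libraries with the same replicate number had correlations of -0.42 to 0.24 over the 33 pairs checked, 6 of them over 0.1. Treated and untreated libraries of the knockout experiment were not paired in this check. With the replicate number as a block, line 1 had 20, 15 and 20 calls (untreated, ABA, PEG) and line 2 had 19, 18 and 20. The wild type of the overexpression experiment had 18 and 15, and the averaged responses 19 and 27. Over all tested genes the block gave 2058, 1046 and 5613 calls in line 1 and 3491, 1269 and 4605 in line 2. It gave 15791 and 29115 in that wild type and 25143 and 30321 in the averaged responses. Depth, which these values do not hold, limits the genes near 0 most.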

Other observations

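The 9 genes that were not tested in the overexpression experiment still had values in the knockout experiment. BnaC01G0514200ZS and BnaA03G0537700ZS, chosen after their values were seen, were listed at 0 in all 27 libraries of the overexpression experiment and in all 9 wild type libraries of the knockout experiment. The knockout means of BnaC01G0514200ZS were 1.5006 ± 0.332 untreated, 1.70 ± 0.980 with ABA and 2.24 ± 1.64 with PEG (SD, n = 3). Those of BnaA03G0537700ZS were 1.17 ± 0.560, 1.40 ± 0.383 and 2.36 ± 1.23 in that order. They therefore had values above 0 only in the knockout among the 5 genotype groups of these data.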
